A study of Mus musculus with 12 samples.

Results

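The miR-30 family genes are the mouse genes Mir30a, Mir30b, Mir30c-1, Mir30c-2, Mir30d and Mir30e. Their 6 entries were taken by symbol from the 25033 entries of the Ribo-seq table, beside 1210 other microRNA genes. They were chosen because Mir30a, Mir30d and Mir30e were far higher with lycopene in that table, so their differences between the groups are given as a description, with no p-value and not as evidence of a difference. Both groups were male C57BL/6 mice that started a high-fat diet at 8 weeks of age, stayed on it for 8 weeks and gave liver at 16 weeks. The HFD group received the high-fat diet alone. The LYC group received the high-fat diet with lycopene, a red carotenoid of tomatoes, which is stated by the sample titles and the methods while the treatment label names only the diet. No group on a normal diet was analysed here, so both groups carried the diet that fattens the liver. Ribo-seq reads the short stretches of RNA that translating ribosomes shield from a nuclease, and 3 libraries of each group were used. The labels mention pooling before library construction, and both they and the methods mention pooling of digested footprint samples. That a library stands for 1 mouse rests on the titles and on the study's account of biological replicates, so p-values may measure a spread that is partly technical.

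A microRNA is cut from a hairpin in a longer transcript, first by Drosha in the nucleus and then by Dicer in the cytoplasm, which leaves a 5p and a 3p strand. The chosen strand is loaded into an Argonaute protein and pairs, through bases 2 to 8 at its 5′ end (the seed), with sites in messenger RNA, which are then translated less or degraded. miR-30 microRNAs are abundant in many tissues, and in the liver they are known for acting on Mttp, the protein that loads lipid onto lipoproteins, and on Lpgat1, an enzyme of phospholipid synthesis. A microRNA hairpin codes for no protein, so reads on these genes in a footprint library do not measure the translation of a protein from them.

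The RefSeq sequence table (GRCm38.p6) held 4 of the 6 members, Mir30a, Mir30c-1, Mir30c-2 and Mir30e. Their mature strands are shown because the strand that a read came from, and how far members can be told apart, bear on every value that follows. The seed is in capitals.
miR-30a-5p: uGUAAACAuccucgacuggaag
miR-30e-5p: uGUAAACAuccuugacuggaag
miR-30c-5p: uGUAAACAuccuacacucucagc
miR-30a-3p: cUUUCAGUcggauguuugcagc
miR-30e-3p: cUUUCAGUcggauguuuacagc
miR-30c-1-3p: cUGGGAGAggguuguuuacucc
miR-30c-2-3p: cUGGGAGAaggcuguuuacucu
The 5p strands shown share the seed GUAAACA, which 4 of 1679 mature names in the table carry. The fourth name is miR-384-5p, whose gene Mir384 had 0 reads in every Ribo-seq library. That count leaves out Mir30b and Mir30d, whose strands the table does not hold. The 3p strands fall into 2 seed groups, UUUCAGU for Mir30a and Mir30e and UGGGAGA for Mir30c-1 and Mir30c-2. Counted from 1 at the 5′ end, miR-30a-5p and miR-30e-5p differ at 1 base, C13U, and their 3p strands also differ at 1 base, G18A. miR-30a-5p and miR-30c-5p are alike over the first 12 bases and differ by C13A, G14C, G18C, G19U and A20C. The 5p strand of Mir30c-1 and of Mir30c-2 is the same sequence, so a read of it cannot be assigned to either gene, and the 3p strands differ by G9A, U12C and C22U.

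In GRCm38 the 4 genes lie in 2 pairs. Mir30a was annotated at chr1:23272269-23272339 and Mir30c-2 at chr1:23291701-23291784, both on the plus strand with 19361 bases between them. Mir30c-1 was annotated at chr4:120769534-120769622 and Mir30e at chr4:120772606-120772697, both on the minus strand with 2983 bases between them. Both lie inside Nfyc (chr4:120757435-120831579), the gene of a subunit of the CCAAT-binding factor NF-Y. In 5 of its 6 annotated RefSeq messenger RNAs they sit in intron 5, and in the other they sit in intron 4, in no case in an exon. The hairpins of Mir30a and Mir30e are shown, with the mature strands in capitals, because these members had the highest ratios between the groups.
Mir30a: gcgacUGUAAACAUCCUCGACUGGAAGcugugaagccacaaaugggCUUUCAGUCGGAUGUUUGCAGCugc
Mir30e: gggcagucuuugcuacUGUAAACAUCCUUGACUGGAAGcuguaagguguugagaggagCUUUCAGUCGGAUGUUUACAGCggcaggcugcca
A further gene, Mir30f, is annotated at the coordinates of Mir30e on the opposite strand. Its mature strand, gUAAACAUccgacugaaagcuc, carries a seed shifted by a base, and 19 of its 22 bases are the reverse complement of a run in miR-30e-3p.

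The Ribo-seq libraries differed in depth by group. Library totals were 2726202, 4405541 and 834410 reads for HFD replicates 1, 2 and 3 and 394461, 311050 and 412116 reads for LYC replicates 1, 2 and 3. The deposited values were RPKM, the read number scaled to gene length and library size, and whole reads were recovered from them. Hepatocyte markers matched the labelled liver, and all 5 listed were abundant in every library. Alb (albumin) lay at 25585 to 29641 RPKM in HFD and 13379 to 22447 RPKM in LYC. In RPKM as deposited, Ttr and Serpina1c were also lower in every LYC library than in any HFD library. Apoa1, an apolipoprotein, went the other way, with 3606 to 4462 RPKM in HFD and 4842 to 5290 RPKM in LYC. Cyp2e1 overlapped between the groups. On this deposited scale genes in general lay lower in LYC, with a median of -0.36 in log2 units. With TMM factors the log2 fold change of Alb was -0.41 (SE 0.38), with an adjusted p of 0.5002 (limma). That of Apoa1 was 0.61 (SE 0.30), with an adjusted p of 0.2085 (limma). Neither was called. The Kupffer cell marker Clec4f lay at 33.0 to 38.7 RPKM in HFD and at 22.2 to 45.5 RPKM in LYC. Of the markers of other organs, Ins2, Umod and Sftpc had 0 reads and Myh6 had 2 reads in all. These are bulk livers, so a change in the number of cells of a type cannot be told apart from a change in RNA per cell.

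Mir30a had the highest level of the family in LYC. Its values were 1560, 1893 and 759.6 RPKM in HFD replicates 1, 2 and 3 and 137967, 105368 and 137866 RPKM in LYC replicates 1, 2 and 3. The groups did not overlap, and the lowest LYC library stood 55.7 times above the highest HFD library. The mean was 1404 ± 582 RPKM in HFD and 127067 ± 18792 RPKM in LYC (SD, n = 3), a ratio of 90.5. Behind these values lay 302, 592 and 45 HFD reads and 3864, 2327 and 4034 LYC reads, so the gene drew more reads from the shallower libraries.

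Mir30e was the least abundant of the 3 leading members in HFD and showed the highest ratio of the family. It stood at 183.4, 241.8 and 117.2 RPKM in HFD and at 53155, 43646 and 55757 RPKM in LYC. The means were 181 ± 62.3 and 50852 ± 6375 RPKM (SD, n = 3), a ratio of 281. HFD replicate 3 held only 9 reads of it, HFD replicates 1 and 2 held 46 and 98, and the LYC libraries held 1929, 1249 and 2114. The lowest LYC value was 181 times the highest HFD value.

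Mir30d was the most abundant member in HFD. Its values were 8701, 9035 and 3932 RPKM in HFD and 72127, 54458 and 68682 RPKM in LYC. Means of 7222 ± 2855 and 65089 ± 9367 RPKM (SD, n = 3) gave a ratio of 9.01, with no overlap between the groups. It rested on 5478 HFD and 6043 LYC reads.

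Mir30c-1 differed less. It stood at 968.5, 946.2 and 646.4 RPKM in HFD and at 2877, 2348 and 3190 RPKM in LYC. The means of 854 ± 180 and 2805 ± 426 RPKM (SD, n = 3) gave a ratio of 3.29, and the lowest LYC library was 2.42 times the highest HFD library. Mir30c-1 and Mir30e lie in the same introns of Nfyc, and their ratios between the groups were 3.29 and 281.

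In the Ribo-seq table Mir30c-2 and Mir30b were near the limit of counting. Mir30c-2 had 9, 24 and 1 reads in HFD and 1, 7 and 7 reads in LYC, which made 39.3, 64.9 and 14.3 RPKM and 30.2, 268 and 202 RPKM, and the groups overlapped. Mir30b had 5, 6 and 0 reads in HFD and 1, 1 and 0 reads in LYC. The 0 in HFD replicate 3 allows a level of up to 37.5 RPKM and the 0 in LYC replicate 3 up to 75.8 RPKM (3 reads), above every value of Mir30b that was measured, so a difference was not detectable at this depth.

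**Figure D1:**
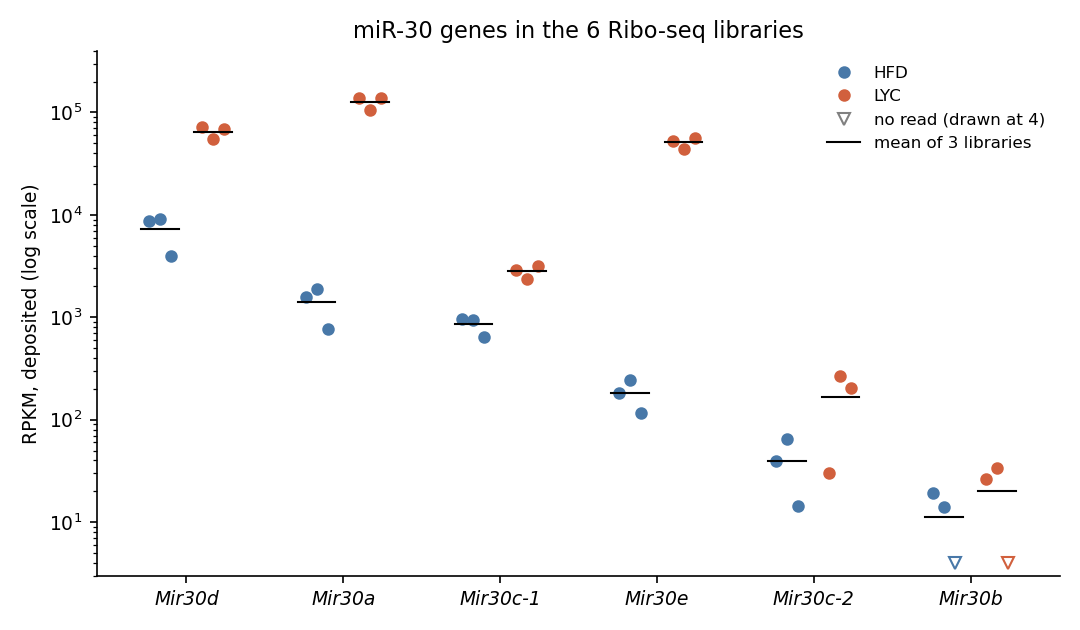
RPKM of the 6 miR-30 genes (log axis) in the 3 HFD and 3 LYC Ribo-seq libraries, each point a library, each line the mean of 3 libraries and each triangle at the foot a library with no read. Mir30d, Mir30a, Mir30c-1 and Mir30e separate the groups, whereas Mir30c-2 and Mir30b overlap.

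Across the 6 members the order of levels per length differed between the groups. In HFD it ran Mir30d, Mir30a, Mir30c-1, Mir30e, Mir30c-2, Mir30b, where the ranges of Mir30a and Mir30c-1, and those of Mir30c-2 and Mir30b, overlapped. In LYC it ran Mir30a, Mir30d, Mir30e, Mir30c-1, Mir30c-2, Mir30b, where the ranges of Mir30d and Mir30e, and those of Mir30c-2 and Mir30b, overlapped. Mir30a was above Mir30c-1 in each of the 3 HFD libraries, and Mir30d was above Mir30e in each of the 3 LYC libraries.

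The make-up of the family's reads differed more between the groups than within them. Mir30d took 74.6% ± 2.12 of the reads on the 6 genes in HFD and 27.6% ± 0.673 in LYC (SD, n = 3). Mir30a took 12.5% ± 0.933 in HFD and 46.7% ± 0.440 in LYC, and Mir30e took 2.16% ± 0.315 and 24.3% ± 0.731. Mir30c-1 took 10.2% ± 2.35 in HFD and 1.29% ± 0.0671 in LYC, so its share of the family was smaller in LYC although its own level was higher. The read number behind a library's shares ranged from 372 in HFD replicate 3 to 8593 in LYC replicate 3.

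**Figure D2:**
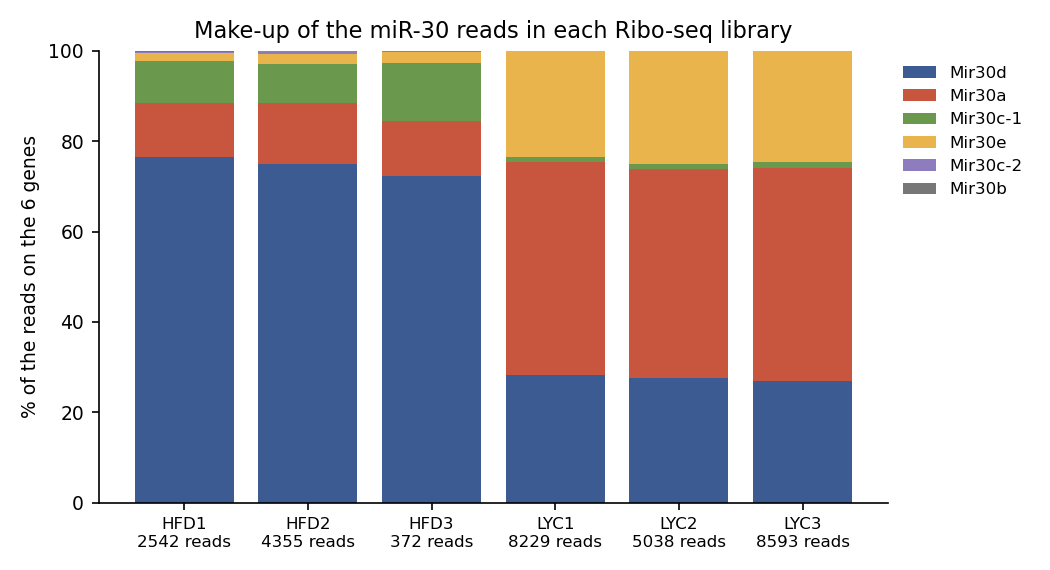
Share of each gene (vertical axis, % of the reads on the 6 genes) in each Ribo-seq library, with the number of reads under the library's name. Mir30d makes up most of each HFD bar, and Mir30a is the largest part of each LYC bar, followed by Mir30d and Mir30e.

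All 5776 genes with enough reads were fitted with limma. A call needed a log2 fold change beyond 1 in either direction together with an unadjusted p under 0.01. Of the members, 4 of 6 passed the filter and all 4 fell within the limits of a call, on the higher side, beside 6.98% of all genes tested. As the members were chosen on this contrast, that count follows from the choice and nothing is read from it. Every LYC library lay above every HFD library for the same 4 members and for 9.87% of the genes tested, and 37.4% of the genes tested had groups that did not overlap in either direction. On the log2(RPKM / TMM factor + 1) scale the fold changes were 8.48 (SE 0.32) for Mir30e, 6.88 (SE 0.41) for Mir30a, 3.55 (SE 0.43) for Mir30d and 2.02 (SE 0.29) for Mir30c-1. Mir30b and Mir30c-2 were removed by the filter. Without the filter they stood at 0.65 (SE 1.66) and 1.94 (SE 0.83).

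Other microRNA genes moved in both directions. Of 55 that were tested, 21 were called higher and 6 lower, and their median on the log2 scale was 0.96, where that of all genes tested was -0.10. By log2 fold change among the 59 microRNA genes tested, Mir30e was in place 1, Mir30a in place 2, Mir30d in place 10 and Mir30c-1 in place 22. Their neighbours in that order were Mir210 at 5.30 (SE 1.15) after Mir30a, Mir455 at 3.89 (SE 0.38) before Mir30d and Mir10a at 3.49 (SE 0.49) after it. Mir30c-1 stood between Mir677 at 2.29 (SE 0.34) and Mir22 at 1.96 (SE 0.27). Among all genes tested, Mir30e stood in place 3, Mir30a in place 6 and Mir30d in place 40.

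**Figure D3:**
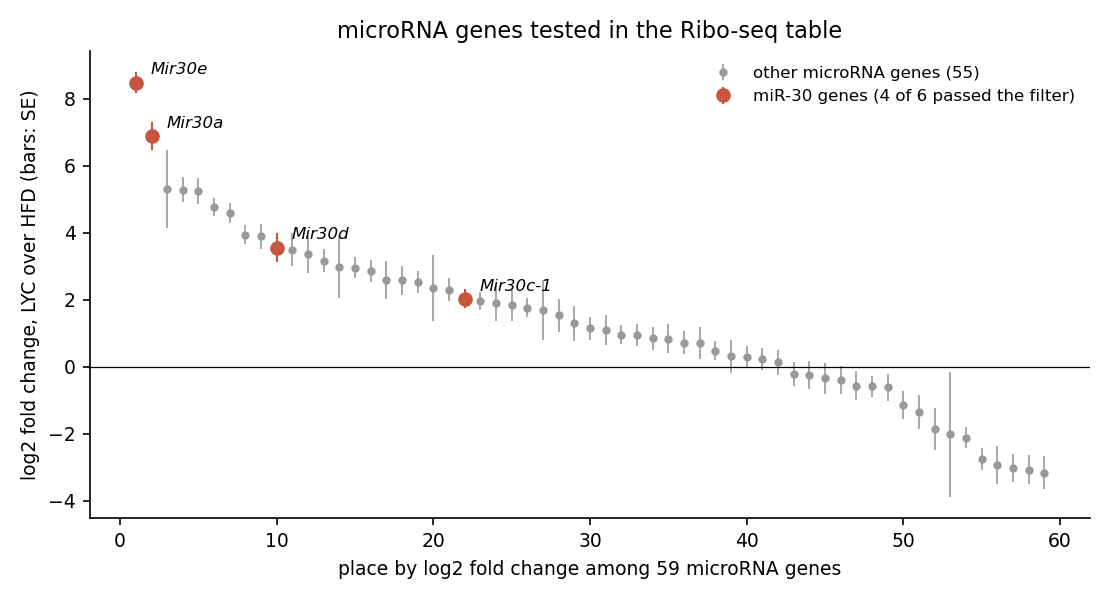
Log2 fold change of LYC over HFD (vertical axis, bars are SE) for the 59 microRNA genes tested, ordered by that value (horizontal axis). The miR-30 genes stand in places 1, 2, 10 and 22, and 6 other microRNA genes at the right were called lower.

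By level among 1216 microRNA genes, Mir30d stood in place 6, Mir30a in place 16, Mir30c-1 in place 22 and Mir30e in place 45 in HFD. In LYC the same genes stood in places 2, 1, 15 and 4. Outside the family, Mir16-1 held the most reads of the Ribo-seq table in HFD, with 27.2% ± 5.70 of all microRNA reads, and Mir451a, a microRNA of red blood cells, the most in LYC, with 14.4% ± 6.70 (SD, n = 3). In the table labelled RNA-seq, described further on, neither led. There Mir16-1 held 3.89% ± 1.23 in HFD and Mir451a 3.05% ± 1.41 in LYC, so this order depends on the table used.

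The family's share of the reads on listed genes was 0.110%, 0.106% and 0.0552% in HFD replicates 1, 2 and 3, with 95% Wilson intervals of 0.105% to 0.114%, 0.103% to 0.110% and 0.0498% to 0.0611%. In LYC replicates 1, 2 and 3 it was 2.36%, 1.81% and 2.35%, with intervals of 2.31% to 2.41%, 1.76% to 1.86% and 2.30% to 2.40%. These intervals cover counting error only. HFD replicate 3 and LYC replicate 2 lay below the other libraries of their groups by more than that error. The mean share was 0.0904% ± 0.0305 in HFD and 2.17% ± 0.315 in LYC (SD, n = 3), a ratio of 24.0.

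All other microRNA genes together held 1.30% ± 0.454 of the reads in HFD and 1.48% ± 0.216 in LYC (SD, n = 3), a ratio of 1.13 with overlapping groups. Without HFD replicate 3 that ratio was 0.945. The family made up 6.50% ± 0.141 of all microRNA reads in HFD and 59.4% ± 7.13 in LYC. Other small non-coding RNA genes, such as those of small nucleolar RNA, held 1.90% ± 0.291 in HFD and 7.64% ± 2.40 in LYC, a ratio of 4.01. The higher share of small RNA in the LYC libraries and their lower depth moved with the values of the family, and their part in these was not tested.

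**Figure D4:**
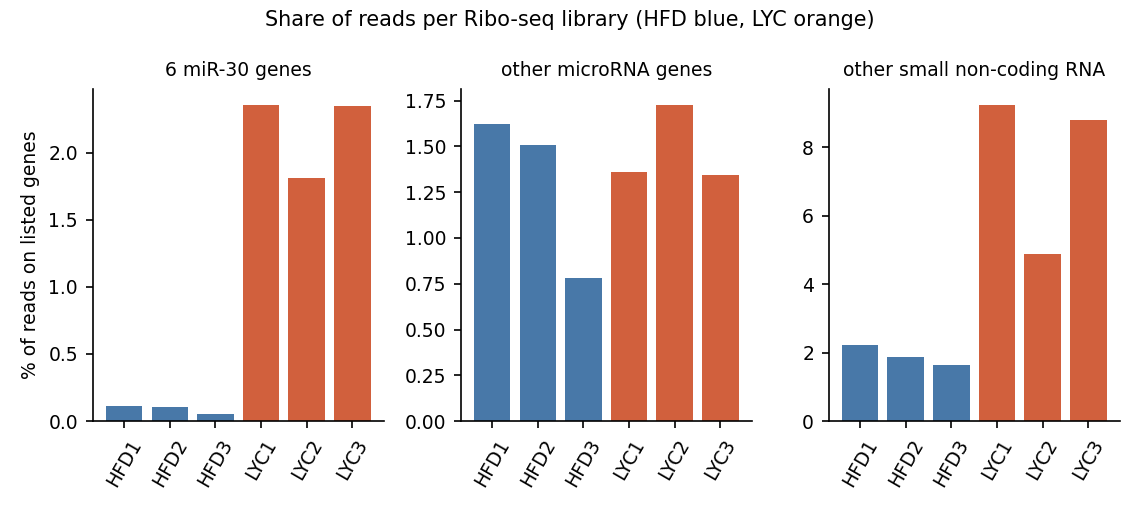
Share of reads on listed genes (vertical axis, %) in each Ribo-seq library for the 6 miR-30 genes, all other microRNA genes and other small non-coding RNA genes, with separate scales. The family and the other small RNA are higher in each LYC library, and other microRNA genes overlap between the groups.

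The genes whose pattern over the 6 libraries was most like the mean centred pattern of Mir30a, Mir30d and Mir30e were small or structural RNA as well. By root mean square difference in log2 units they were Snord100 (0.298), Snora69 (0.374), Snord87 (0.481), Terc (0.587) and Snord2 (0.611). Snora69, a guide RNA for RNA modification, stood at 442, 811 and 432 RPKM in HFD and at 42951, 20106 and 45407 RPKM in LYC. Terc, the RNA component of telomerase, stood at 4.62, 4.00 and 6.04 RPKM in HFD on 5, 7 and 2 reads and at 370, 462 and 691 RPKM in LYC. The members themselves lay 0.293 (Mir30a), 1.38 (Mir30d) and 1.09 (Mir30e) from their own mean.

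Nfyc, which holds Mir30c-1 and Mir30e in its introns, was not called. It stood at 11.9, 10.3 and 4.26 RPKM in HFD and at 7.72, 22.8 and 7.39 RPKM in LYC, with overlapping groups and only 6, 14 and 6 reads in LYC. The log2 fold change was 0.66 (SE 0.47) with an adjusted p of 0.383 (limma, Benjamini-Hochberg). Without LYC replicate 2 the log2 fold change was 0.23, and without LYC replicate 3 it was 0.92. Mir30f, opposite Mir30e, had 0 reads in HFD and 6 in LYC.

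A further table, labelled RNA-seq, held read counts of 6 libraries. After subtraction of group means, each of its libraries followed 1 Ribo-seq library with a correlation of 0.977 to 0.985 across 3322 genes. These had a mean above 50 reads in both tables, and small non-coding RNA, microRNA genes included, was left out. With the other Ribo-seq libraries of the same group the correlation was -0.327 or lower. Subtracting group means pushes those correlations below 0 once 1 library matches, so nothing is read from them. Between 71.4% and 85.2% of the 3322 genes had read numbers within 5% in the matching libraries. That agreement does not cover the members, of which Mir30a had 4.05 times the Ribo-seq reads in HFD and 4.25 times in LYC. LYC numbers matched, whereas HFD replicates 1, 2 and 3 of the further table followed Ribo-seq HFD replicates 2, 3 and 1. It was therefore treated as another count of the same libraries, and its values are given without a test and not as independent support.

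In that table the HFD libraries held 2269, 179 and 1358 reads of Mir30a, and the LYC libraries 14774, 12050 and 16586. Of Mir30d the HFD libraries held 4313, 330 and 2615 reads, and the LYC libraries 2708, 1608 and 2640. With the totals of 582184 to 4730705 reads, mean levels were 5437 ± 2005 and 313415 ± 24526 RPKM for Mir30a and 8943 ± 3424 and 43180 ± 8295 RPKM for Mir30d (SD, n = 3). These RPKM, scaled to the total library size, gave ratios of 57.6 and 4.83. With TMM factors in edgeR the log2 fold changes in this table were 6.93 (SE 0.58) for Mir30a and 3.36 (SE 0.41) for Mir30d, beside 6.88 and 3.55 in the Ribo-seq table, and with total library size they were 5.84 and 2.27. The 6 genes held 2.02% ± 0.360 of all microRNA reads in HFD and 31.3% ± 0.264 in LYC there (SD, n = 3), lower shares than in the Ribo-seq table in both groups. Mir30f, opposite Mir30e, is not among the 6 and held 13.9% ± 0.181 of all microRNA reads in LYC there (SD, n = 3). The lower shares thus depend in part on the gene to which reads were assigned.

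The assignment of reads to members differed between the tables. Mir30e had 153 reads in HFD and 5292 in LYC in the Ribo-seq table and 13 and 459 in the further table, 0.0850 and 0.0867 times as many. Mir30f, on the opposite strand of the same hairpin, had 0 and 6 reads in the Ribo-seq table and 421 and 23015 in the further table. Mir30c-2 had 34 and 15 reads in the Ribo-seq table and 1321 and 515 in the further table, close to the 1244 and 535 reads of Mir30c-1 there. Scaled to depth, Mir30c-2 stood in the further table at 1689 ± 349 RPKM in HFD and 3151 ± 91.9 RPKM in LYC (SD, n = 3), a ratio of 1.87 with groups that did not overlap, where the Ribo-seq groups overlapped. Its log2 fold change in that table was 1.98 (SE 0.26) with TMM factors and 0.89 with total library size. How reads that fit both genes, or the strand, were treated is not given in the sources used here, so the levels of the members against each other depend on the table. Of the reads on the 6 genes, the further table gave Mir30a 27.5% ± 0.598 in HFD and 83.8% ± 1.54 in LYC, Mir30d 52.0% ± 2.20 and 13.3% ± 1.85, and Mir30e 0.151% ± 0.134 and 0.890% ± 0.169 (SD, n = 3). Mir30f is not among the 6 genes, so the 23015 LYC reads on it are left out of these shares. By mean RPKM, Mir30d was 1.64 times Mir30a in HFD with overlapping ranges there, beside 5.14 times in the Ribo-seq table. In LYC Mir30a was 7.26 times Mir30d there, beside 1.95 times. The sum of Mir30e and Mir30f was 434 reads in HFD and 23474 in LYC there.

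**Figure D5:**
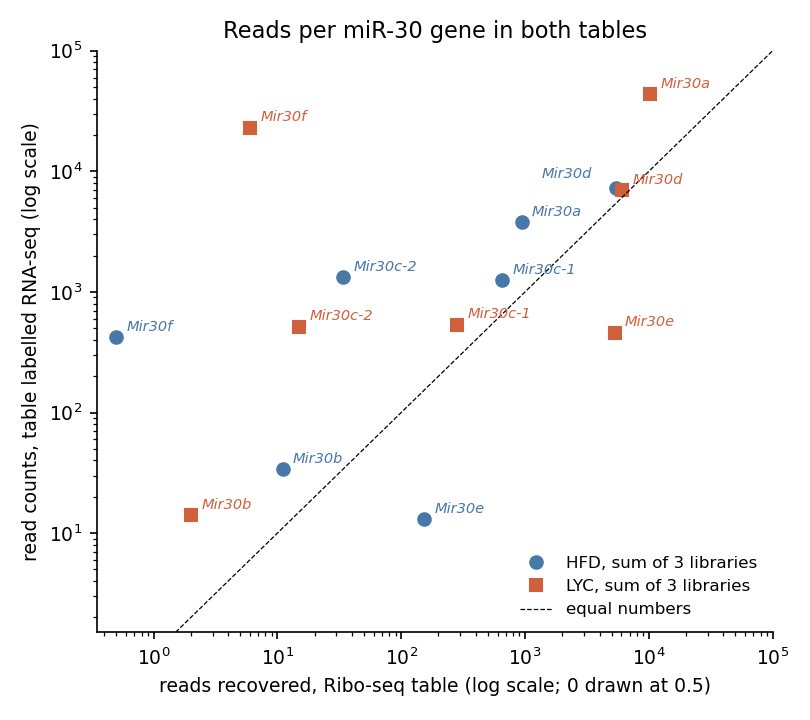
Reads per gene summed over the 3 libraries of each group, recovered from the Ribo-seq table (horizontal, log axis, 0 drawn at the left edge) and counted in the table labelled RNA-seq (vertical, log axis), with a dashed line of equal numbers. Mir30e lies below the line in both groups, and Mir30f and Mir30c-2 lie far above it.

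Of 28 genes that make microRNAs or carry out their action, 16 passed the filter. Of these 1 was called higher and 0 were called lower, beside 6.98% and 6.32% of all genes tested, and the list's median log2 fold change was -0.32 against -0.10 over all genes. At an unadjusted p below 0.05, limma found 4 of the 16, Dis3l2 and Ddx5 higher and Ago1 and Tnrc6a lower. edgeR and DESeq2 on the recovered reads each found 4 of 16 at that level and also called 0 lower. The same level was reached by 29.9% of all genes tested with limma, 32.1% with edgeR and 31.9% with DESeq2. An adjusted p below 0.05 was reached by 1 of the 16 with limma and by 2 each with edgeR and DESeq2. Of the 5776 genes tested, 666, 951 and 1091 reached it with limma, edgeR and DESeq2.

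Among the nuclear processing genes, Ddx5, a helicase that assists Drosha, stood at 51.6, 64.9 and 60 RPKM in HFD and at 84.4, 110 and 65.7 RPKM in LYC. The groups did not overlap, but the log2 fold change of 0.82 (SE 0.25) did not pass the limit for a call, and its adjusted p was 0.0690 (limma). On the recovered reads the log2 fold change was 0.85 with edgeR (unadjusted p 0.00415) and 0.86 with DESeq2 (unadjusted p 6e-04), also within that limit. Ddx17 is a related helicase of the same complex. It stood at 21.4, 14.9 and 20.3 RPKM in HFD and at 12.7, 8.08 and 8.14 RPKM in LYC. These groups did not overlap in RPKM as deposited, a scale on which all genes had a median log2 fold change of -0.36. With TMM factors the log2 fold change of Ddx17 was -0.64 (SE 0.36), with an adjusted p of 0.271 (limma). Drosha itself had 81 reads in HFD and 6 in LYC and was not tested. Xpo5, which exports hairpins from the nucleus, had a log2 fold change of 0.59 (SE 0.46, limma adjusted p 0.422). That value was 0.17 without LYC replicate 1 and 1.04 without LYC replicate 3.

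Dicer1, which makes the cut in the cytoplasm, had a log2 fold change of -0.31 (SE 0.43) with an adjusted p of 0.650 (limma). Ago1 and Ago2, the Argonaute proteins that hold the loaded strand, had fold changes of -0.97 (SE 0.35, adjusted p 0.104) and -0.40 (SE 0.30, adjusted p 0.402) on the log2 scale (limma). These moved to -1.34 and -0.50 with a pseudocount of 0.1 and to -0.28 and -0.14 with 10. Tnrc6a and Tnrc6c, scaffold proteins of the silencing complex, were at -1.12 (SE 0.43, adjusted p 0.124) and -0.89 (SE 0.41, adjusted p 0.185) by limma. They rested on 8 LYC reads each, and their sizes moved with the pseudocount, to -2.35 and -1.996 with 0.1 and to -0.23 and -0.17 with 10. Lin28a and Lin28b, RNA-binding proteins of embryonic tissue that block microRNA processing, had 0 reads in all 6 libraries.

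Dis3l2, an exonuclease that degrades uridylated small RNA, was the gene called. Its values were 2.70, 3.41 and 3.83 RPKM in HFD and 5.67, 14.4 and 11.6 RPKM in LYC, on 7, 14 and 15 LYC reads. It rose by a log2 fold change of 1.59 (SE 0.35), with an adjusted p of 0.0254 (limma). The call was lost without HFD replicate 1 (log2 fold change 1.49, unadjusted p 0.01004 by limma) and without HFD replicate 2 (1.47, p 0.0109). It was also lost with a pseudocount of 10, where the log2 fold change was 0.70, and at a limit of p below 0.001.

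Of 18 genes listed from general knowledge as miR-30 targets, 11 passed the filter and 0 were called in either direction, beside 13.3% of all genes tested. The fold changes of 5 were above 0 and those of 6 below, and their median was -0.15 on the log2 scale against -0.10 over all genes. At an unadjusted p below 0.05, limma found Gnai2 and Tnrc6a lower and Atg12 higher, 3 of 11, and edgeR and DESeq2 each found Gnai2 and Tnrc6a, 2 of 11, with 0 calls. Of all genes tested, 29.9% reached that level with limma, 32.1% with edgeR and 31.9% with DESeq2. The sign of the median changed when HFD replicate 1 was left out (0.28), HFD replicate 2 (0.17), HFD replicate 3 (0.04), LYC replicate 2 (0.17) or LYC replicate 3 (0.14).

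A miR-30 site in a messenger RNA is the reverse complement of the seed, TGTTTAC in DNA letters, and the extended form TGTTTACA. Sites in the 3′ UTR of genes known as targets are shown from GRCm38, on the gene's own strand in the RefSeq transcript with the longest 3′ UTR, with TGTTTAC in capitals, because these letters are the complement of the 5p seed.
Mttp, chr3:138090977-138091006, minus strand: cccttgctctctgagagcacagTGTTTACa
Lpgat1, chr1:191779099-191779128, plus strand: aggctagctcagcccagtaccaTGTTTACa
Becn1, chr11:101288712-101288741, minus strand: atttgggtaatattaaaccacaTGTTTACa
Gnai2, chr9:107614717-107614746, minus strand: ccagccctgacccaagtccaaaTGTTTACa
Tnrc6a, chr7:123193651-123193680, plus strand: aggttcccacggtgaaccttctTGTTTACa
TGTTTAC was found in 14 of the 18 listed 3′ UTRs and TGTTTACA in 13, on the sense strand only. Over all 19535 genes with a 3′ UTR, 12.7% held TGTTTAC and 6.46% held TGTTTACA. Smad1, Trp53, Vim and Ccn2 held neither form, which says only that these letters are not in that 3′ UTR.

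Mttp, with the site shown, stood at 79.98, 90.8 and 65.5 RPKM in HFD and at 59.7, 36.4 and 85.1 RPKM in LYC. The groups overlapped, and the log2 fold change was -0.15 (SE 0.35, limma adjusted p 0.805). Lpgat1 stood at 33.6, 52.1 and 35.3 RPKM in HFD and at 13.3, 20.9 and 30.9 RPKM in LYC. Its groups did not overlap in RPKM as deposited, a scale on which all genes had a median log2 fold change of -0.36. With TMM factors the log2 fold change of Lpgat1 was -0.63 (SE 0.31), with an adjusted p of 0.214 (limma).

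Gnai2, a G protein subunit with 2 sites in its 3′ UTR, stood at 27.5, 34.8 and 30.1 RPKM in HFD and at 6.95, 8.81 and 21.1 RPKM in LYC, on 6, 6 and 19 LYC reads. Its log2 fold change was -1.13 (SE 0.39) with an adjusted p of 0.0940 (limma). It was not called, but it was called lower with RPKM as deposited and without LYC replicate 3. Tnrc6a, with 4 sites, was also called lower without LYC replicate 3.

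The autophagy genes of the list had values on the other side of 0. Becn1 had a log2 fold change of 0.53 (SE 0.32, adjusted p 0.296), Atg5 one of 0.63 (SE 0.33, adjusted p 0.240) and Atg12 one of 0.71 (SE 0.29, adjusted p 0.147), all by limma. None of these was called, and each held 1 TGTTTAC in its 3′ UTR. When each library was left out, Becn1 ranged from 0.31 to 0.66, Atg5 from 0.42 to 0.93 and Atg12 from 0.55 to 0.85.

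Over all tested genes with a 3′ UTR, 924 held TGTTTAC and 4637 did not. Their median log2 fold changes were -0.21 and -0.08. The 3′ UTRs with the letters were longer, with a median of 2482 bases against 962 bases. Among 3′ UTRs of over 2000 bases the medians were -0.30 with the letters (572 genes) and -0.27 without (1097 genes). Among those of over 1000 to 2000 bases they were -0.10 (236 genes) and -0.15 (1152 genes), and of over 500 to 1000 bases 0.02 (82 genes) and -0.06 (976 genes). Among those of up to 500 bases they were 0.34 (34 genes) and 0.14 (1412 genes). The median over all genes, with or without the letters, moved from 0.14 for 3′ UTRs of up to 500 bases to -0.28 for those over 2000 bases. These are descriptions with no test.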

How the data were processed

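The members and gene lists were chosen with earlier results of these data known. The deposited Ribo-seq values are RPKM, and the table labelled RNA-seq has deposited read counts beside RPKM. According to the methods and processing notes, the authors trimmed with cutadapt, cleaned with Bowtie2, aligned with STAR to GRCm38 and quantified with FANSE2. Versions, annotation release, multi-mapping and strand settings are not given in the sources used here. A gene's RPKM is a whole multiple of the worth of 1 read, so whole reads were recovered with the gene lengths implied by the further table (11011 genes) or fitted (4737 genes), within 0.004 reads, and 1 gene of 15749 was left unrecovered. Of 25033 entries, 26 had names turned into dates and 4 sharing a name were left out.

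Counts had been foreseen as a possible unit, and as the unit was RPKM, the test was limma 3.58.1 with trend on log2(RPKM / TMM factor + 1) for genes kept by filterByExpr (edgeR 4.0.16), in R 4.3.3, two-sided, with Benjamini-Hochberg adjustment over all 5776 genes. In a simulation of this comparison on 6050 genes, limma recovered 175 of 179 changed genes and called 61 of 5871 unchanged ones. The sizes of the differences put in are not stated here, so nothing about the listed genes is read from these numbers. Alternatives were DESeq2 1.42.0, edgeR on reads, other pseudocounts, scalings and filters, the replicate block and leaving out each library. Exact permutation of 3 against 3 libraries cannot give a two-sided p below 0.1 and was not used.

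The text names the 6 members, genes that hold or lie within 25000 bases of a member, list genes called, with the smallest p or with a described role, the 5 most alike profiles and microRNA genes next to a member in fold change, except that a neighbouring gene is not reported here. Mir16-1 and Mir451a were named after their values were seen. The further table was not used for calls because it counts the same libraries.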

Additional observations from a re-analysis of the deposited data

How the results depend on the processing

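The fold changes of Mir30a, Mir30c-1, Mir30d and Mir30e in the Ribo-seq table stayed above 0 in all 64 alternative values. They lay within 6.51 to 7.08, 1.73 to 2.21, 3.18 to 3.75 and 8.18 to 8.65 on the log2 scale. The stricter p limit and the replicate block could not change a fold change in that table, so nothing is read from their values. Of the further table's alternative values, 55 moved by less than the spread between libraries, and 5 moved by more, all with scaling to the total library size, which is also the scale of the RPKM of that table. Mir30c-1 went from 2.14 to 1.06 and Mir30e from 8.31 to 7.21 there. With other small non-coding RNA left out of the reads, the family's share was 25.6 times higher in LYC. The median of all genes shifted from -0.10 to -0.36 with RPKM as deposited.

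Counts of genes called were 403 higher and 365 lower. With pseudocount 10 they were 265 and 117, with RPKM as deposited 235 and 651, and with p below 0.001 they were 196 and 101. Without a filter 877 were called lower. Leaving out each library gave 268 to 574 higher and 143 to 707 lower. Of the biogenesis list, 0 were called higher with pseudocount 10 and with p below 0.001. Leaving out each library gave 0 to 1 higher and 0 to 1 lower (Tnrc6a). Of the target list, 1 was called lower with RPKM as deposited, and leaving out each library gave 0 to 2. The median of the biogenesis list was -0.32, and it was -0.57 with RPKM as deposited and -0.14 with pseudocount 10. The median of the target list was -0.15. It was -0.45 with RPKM as deposited, 0.0601 without small non-coding RNA in the scaling, -0.27 without a filter and -0.28 to 0.28 when each library was left out. When each library was left out, Dicer1 ranged from -0.649 to 0.0589 and Mttp from -0.447 to 0.229, above 0 only without LYC replicate 2. The cause was not tested.

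Same-numbered HFD and LYC libraries come from different mice, and their deviations from the group means correlated at 0.108, 0.0262 and 0.00731, so the numbers were not taken as pairs. With the replicate number as a block, 397 genes were called higher and 341 lower. The counts of the 2 lists did not change. Low read numbers in the Ribo-seq table limit Mir30b and Mir30c-2, which had 2 and 15 LYC reads there. In the further table Mir30c-2 had 515 LYC reads. Low read numbers also limit the lists, of which 12 and 7 genes did not pass the filter. Calls were not made in the further table.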
